A study of Bubalus bubalis with 12 samples.

Results

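Cathepsins are the peptidases of the lysosome, the acidic compartment in which cells digest proteins taken up from outside or delivered by autophagy. The levels of 10 cathepsin genes, CTSA, CTSB, CTSC, CTSD, CTSF, CTSH, CTSK, CTSL, CTSS and CTSZ, were examined in the ruminal wall of dairy buffaloes. They were chosen by symbol, and each of the 10 was found once among the 34037 genes of the deposited table. Tissue came from 12 Italian Mediterranean dairy buffaloes (Bubalus bubalis), all adult cows kept on the same farm. The 6 cows of the control group ate a total mixed ration (TMR), and for the 6 cows of the treated group green ryegrass, cut fresh, made up about 30% of a diet that was otherwise also TMR. The ryegrass took the place of the soybean meal and of part of the corn silage, alfalfa hay and concentrate. The treated group was given more corn meal, and calcium carbonate and vitamins were listed for the control diet alone. All of these components thus differed between the groups as well. Each animal gave 1 library of total RNA from a piece of the wall, collected at slaughter at the end of the feeding trial, and the comparison asks how gene expression differs between both diets.

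Most cathepsins are cysteine proteases of the papain family, while CTSD is an aspartic protease and CTSA a serine carboxypeptidase. They are made as inactive precursors, tagged with mannose 6-phosphate in the Golgi, carried to the lysosome and activated there as the vacuolar proton pump acidifies it. Cystatins and some serpins hold cysteine cathepsins in check outside the lysosome. The inner surface of the rumen is a stratified squamous epithelium that absorbs the products of fermentation, and below it lie connective tissue, vessels, immune cells and muscle, so that a wall sample can mix cells with different sets of cathepsins.

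The deposited values are FPKM, in which the fragments of a gene are divided by its length and by the depth of the library, so that levels can be compared between genes. Library depth, as fragments assigned to genes, lay between 10531541 and 12948372, and the number of reads behind each FPKM could be worked out. Markers of stratified squamous epithelium dominated every sample, with a summed level between 3614 and 7041 FPKM, while those of macrophages and dendritic cells summed to between 30.2 and 61.2 FPKM. All 30 pairs of animals within a diet differed by more than sampling noise, and no library was counted as a repeat. Control replicate 6 and treated replicate 6 stood apart in their cathepsins, as described further on, and estimates for the tested cathepsins are given with and without these 2 animals. Replicate numbers follow the sample descriptions; the headers of the deposited table number this control animal 7 and this treated animal 8, so that the shared number is one of the descriptions alone. Control replicate 6 also had the fewest counted fragments.

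The cathepsins ranged from more than 100 FPKM to a level that in most animals could not be told from 0. CTSB, an endopeptidase that also trims dipeptides from the end of proteins, stood first with 157 ± 12.7 FPKM (SD, n = 12 animals of both diets). CTSD, the main aspartic protease of the lysosome, followed with 127 ± 42.4 FPKM. CTSB exceeded CTSD in 11 of 12 animals, although the highest CTSD values lay within the range of CTSB. These 2 genes together held between 64.3% and 79.5% of the summed FPKM of the 10 cathepsins in each animal. CTSA, which trims the carboxyl end of peptides and shields beta-galactosidase and neuraminidase from degradation, came next with 24.8 ± 5.65 FPKM (SD, n = 12). It was below CTSD in 12 of 12 animals and above CTSZ in 11 of 12.

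A middle tier held the genes CTSZ, CTSS and CTSF. CTSZ, a carboxypeptidase, had 14.7 ± 4.46 FPKM, CTSS, the protease that degrades the invariant chain of MHC class II molecules in antigen-presenting cells, had 14.6 ± 5.89 FPKM, and CTSF, another papain-like protease of the endosome, had 13.6 ± 2.64 FPKM (SD, n = 12 each). Their order could not be told from the spread, since CTSZ exceeded CTSS in 8 of 12 animals and CTSS exceeded CTSF in 6 of 12. CTSK, a protease that cleaves collagen and is best known from osteoclasts, averaged 9.18 ± 4.13 FPKM. CTSC, a dipeptidyl peptidase that activates the serine proteases of leukocyte granules, averaged 8.96 ± 3.44 FPKM, and the pair could not be ordered either (CTSK higher in 7 of 12 animals). CTSH, an aminopeptidase, was lower than CTSC in 12 of 12 animals, with 3.73 ± 1.27 FPKM. Under scaling by the trimmed mean of M values (TMM), all 10 genes kept their place in this order.

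CTSL was close to absent. This endopeptidase, expressed in many tissues, was covered by 0, 2, 1, 0, 1 and 1 reads in control replicates 1 to 6 and by 1, 4, 0, 0, 3 and 5 reads in treated replicates 1 to 6. With 3 reads worth up to 0.206 FPKM, a level below that could not be told from 0 in an animal. CTSL reached the expression filter in no animal and was not tested. By contrast, the gene named CTSV in the deposited table (gene 102394284), a papain-like protease closely related to CTSL, had between 2265 and 8487 reads per animal. Its mean was 109 ± 33.5 FPKM (SD, n = 6) in the control group and 126 ± 67.3 FPKM (SD, n = 6) in the treated group, which is near the level of CTSD. RefSeq lists that gene in another buffalo assembly, NDDB_SH_1, only by a locus number. How reads from related genes were divided between both loci was not tested.

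**Figure D1:**
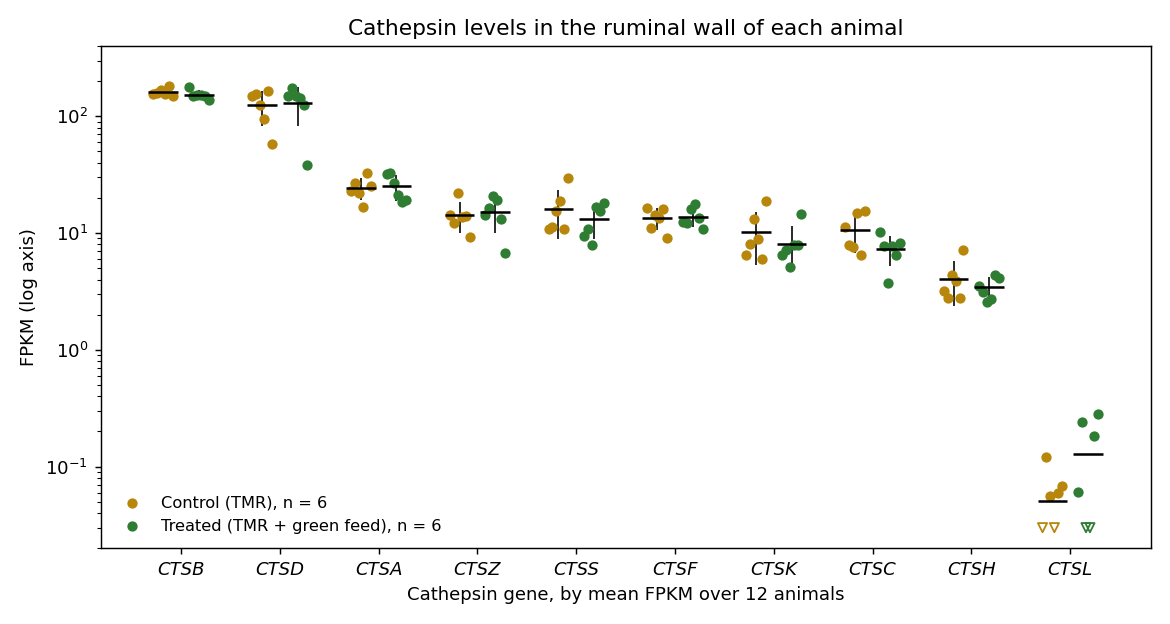
FPKM of each cathepsin in each animal on a log axis, with control animals in ochre and treated animals in green; horizontal bars are group means, vertical lines are SD (n = 6, not drawn for CTSL), and open triangles near the lower edge are animals with 0 reads. CTSB and CTSD lie near 100 FPKM, CTSL lies at or below the value of 5 reads, and the points of both groups overlap for every gene.

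No cathepsin tested differed between the diets by limma. The other 9 cathepsins passed the expression filter, and did so in all 12 animals, with between 89 reads (CTSH) and 4906 reads (CTSB) in an animal. Tested with limma on log2(FPKM + 0.01), 0 of 9 had an adjusted p-value below 0.05, against 0 of all 12642 genes tested (0%). At an unadjusted p-value below 0.05 the count was also 0 of 9, against 157 of 12642 genes (1.24%), of which those higher in the treated group made up 0.791% and those lower 0.451% of all genes, and voom on the worked-out reads likewise gave 0 of 9. With a macrophage score as a covariate, 1 of 9 had an unadjusted p-value below 0.05, against 199 of 12642 genes. With the replicate number as a block it was also 1 of 9, against 322 of 12642 genes. The cathepsin was CTSC in both settings. The labels do not say what a shared replicate number stands for, and the headers of the deposited table give same-numbered animals different numbers. In no cathepsin were the groups free of overlap, as they were in 7 of 12642 genes (0.0554%). The log2 fold changes, treated minus control, were positive for 4 cathepsins and negative for 5, with a median of -0.07, while the median over all tested genes was 0.0053. Since the samples are pieces of bulk tissue, fewer cells of a type and less RNA per cell cannot be told apart in any of these values.

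The endopeptidases of broad expression, CTSB and CTSD, differed in how steady they were. CTSB (gene 102410738) ranged from 148 FPKM over a median of 156 to 182 FPKM in the control animals and from 139 over 152 to 177 FPKM in the treated animals. Both ranges almost coincided, and 5 of 6 treated animals lay below the control median. Group means were 161 ± 12.4 and 153 ± 12.9 FPKM (SD, n = 6 each), and the log2 fold change was -0.07 ± 0.09 (SE, two-sided exact permutation p = 0.299, limma adjusted p = 0.9997). Its SD on the log2 scale within groups, 0.113, stood at percentile 1.12 of all tested genes, and the 95% interval of the difference ran from -0.27 to 0.13, the narrowest of the 9. CTSD (gene 102404392) ranged from 58.0 over 137 to 165 FPKM in the control group and from 38.4 over 145 to 174 FPKM in the treated group. The lowest value of each group was that of the animal numbered 6, and the remaining animals of both diets overlapped. With means of 124 ± 41.2 and 129 ± 47.4 FPKM (SD, n = 6 each), its log2 fold change was 0.0031 ± 0.35 (SE, exact permutation p = 0.991), and its sign turned with the scaling of the libraries. Its SD within groups, 0.70 on the log2 scale, stood at percentile 86.9. The interval, -0.75 to 0.76, was the widest, and without both animals numbered 6 the estimate was 0.12 ± 0.15 (SE).

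The carboxypeptidases CTSA and CTSZ gave estimates near 0. CTSA (gene 102412556) had 16.8, 24.0 and 33.0 FPKM as lowest, median and highest value in the control group and 18.4, 24.0 and 32.7 FPKM in the treated group. The ranges and medians were nearly the same, and the log2 fold change was 0.03 with a 95% interval from -0.37 to 0.43 (exact permutation p = 0.883). CTSZ (gene 102412544) had 9.21, 13.8 and 22.2 FPKM in the control group and 6.76, 15.3 and 20.9 FPKM in the treated group. Again the animal numbered 6 was the lowest of each group. The log2 fold change of CTSZ was 0.04, with an interval from -0.51 to 0.60 (exact permutation p = 0.883). It was 0.26 without treated replicate 6 and 0.14 without both animals numbered 6, while that of CTSA was 0.11 without both.

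CTSC showed the largest estimate of the 9, although it did not pass the test. The estimate was about as large as the SD between animals within groups (0.512 on the log2 scale). CTSC (gene 102399616) ranged from 6.49 over a median of 9.59 to 15.6 FPKM in the control group and from 3.75 over 7.71 to 10.2 FPKM in the treated group. The treated animals were low, with 5 of 6 below the control median, but the groups overlapped. Means were 10.6 ± 3.89 and 7.33 ± 2.14 FPKM (SD, n = 6 each), and the log2 fold change was -0.51 ± 0.27 (SE, two-sided exact permutation p = 0.117, limma adjusted p = 0.9997). The 95% interval, -1.09 to 0.06, corresponds to a level in treated animals between 0.471 and 1.04 times that of the control animals. Without both animals numbered 6 the estimate was -0.43 ± 0.28 (SE), and without treated replicate 3, the animal with the lowest value, it was -0.33 ± 0.24 (SE). Of 10 granule serine proteases that CTSC can activate, 5 were in the table and none reached the expression filter.

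CTSK, CTSS and CTSH, which shared much of their variation, had slightly negative estimates. CTSK (gene 102407535) ranged from 5.95 over 8.50 to 18.9 FPKM in the control group and from 5.08 over 7.48 to 14.5 FPKM in the treated group. CTSS (gene 102408311) ranged from 10.8 over 13.4 to 29.5 FPKM in the control group and from 7.86 over 13.2 to 17.9 FPKM in the treated group. CTSH (gene 102413180) ranged from 2.78 over 3.53 to 7.18 FPKM in the control group and from 2.58 over 3.34 to 4.41 FPKM in the treated group. For all 3 genes the highest of the 12 values belonged to control replicate 6, and the groups overlapped with similar medians. Log2 fold changes were -0.29 for CTSK (95% interval -0.92 to 0.34, exact permutation p = 0.396), -0.26 for CTSS (-0.86 to 0.33, exact permutation p = 0.405) and -0.18 for CTSH (-0.69 to 0.33, exact permutation p = 0.511). Without both animals numbered 6 they were -0.27, -0.17 and -0.06, respectively. Single animals moved them further, since without control replicate 6 the estimate was -0.09 for CTSK, -0.07 for CTSS and 0.0016 for CTSH. CTSF (gene 102411640) had 9.02, 13.9 and 16.4 FPKM in the control group and 10.7, 13.0 and 17.6 FPKM in the treated group, and its log2 fold change was 0.05 (95% interval -0.32 to 0.42, exact permutation p = 0.771), or 0.01 without both animals numbered 6. The counting error amounted to between 0.022 (CTSB) and 0.127 (CTSH) on the log2 scale, below the SD between animals for each of the 9 genes.

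**Figure D2:**
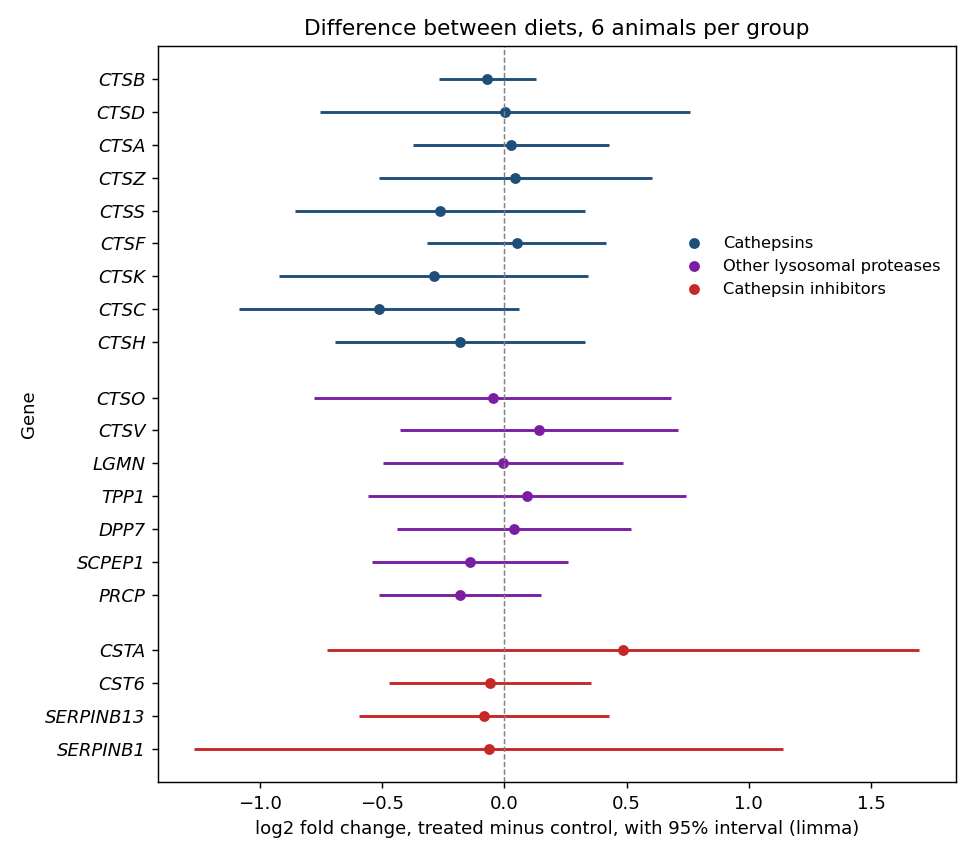
Log2 fold change, treated minus control, of the tested cathepsins, other lysosomal proteases and cathepsin inhibitors, with points for limma estimates and lines for 95% intervals (n = 6 animals per group). Every interval includes 0; that of CTSB is the narrowest and that of CTSC reaches furthest below 0 among the cathepsins.

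In 2 animals, 1 of each diet, the profile of cathepsins differed from that of the others. They were control replicate 6 and treated replicate 6, and they stood apart in other genes too. KRT5 was at 451 and 498 FPKM, against group medians of 1607 and 1641 FPKM. Among the tested markers, KRT5, PKP1 and SMTN were the lowest of the group in both, while DSG3 and CD3G were the highest. Of the same-numbered pairs, this pair also had the highest correlation of deviations (0.416). In control replicate 6 and treated replicate 6, CTSD was at 58.0 and 38.4 FPKM, the 2 lowest of the 12 values. CTSZ, at 9.21 and 6.76 FPKM, and CTSF, at 9.02 and 10.7 FPKM, were likewise the 2 lowest. CTSK, at 18.9 and 14.5 FPKM, held the 2 highest values. These animals were thus low for CTSD, CTSZ and CTSF and high for CTSK, and CTSB, at 148 and 139 FPKM, was at the lowest value of each group, within its narrow range.

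Ratios within an animal do not depend on the scaling of its library. They were formed from the same cathepsin values by which the 2 animals stood out, so they describe that split again and are no separate support for it. The ratio of CTSB to CTSD was between 0.863 and 1.65 in the other 10 animals, but 2.55 in control replicate 6 and 3.62 in treated replicate 6. The ratio of CTSD to CTSK was between 9.49 and 29.2 in the other animals and 3.07 and 2.66 in these, respectively. For CTSZ over CTSS the values were between 0.728 and 2.66 in the others against 0.313 and 0.377. CTSB and CTSD together made up 64.3% and 68.5% of the summed cathepsin FPKM in the animals numbered 6 and between 73.4% and 79.5% elsewhere. The 2 animals come from different diets, and neither the labels nor the headers name a batch that they share.

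Marker genes of other cell types moved along in part. The summed level of 16 macrophage and dendritic cell markers was 61.2 FPKM in control replicate 6 and 59.1 FPKM in treated replicate 6, the highest of each group, whose medians were 40.3 and 45.4 FPKM. Among them MARCO was at 0 in every animal, and CD163 and FCGR1A were not analysed here. The 9 fibroblast markers summed to 218 and 184 FPKM in these animals, against group medians of 108 and 96.8 FPKM. The highest control sum, 283 FPKM, was that of another animal, while 184 FPKM was the highest of the treated group. Of 8 tested fibroblast markers, 0 were the highest of the group in control replicate 6 and 3 in treated replicate 6. Epithelial markers, at 3614 FPKM in control replicate 6, were at their lowest, and at 4207 FPKM in treated replicate 6 they were below the group median of 5644 FPKM. Osteoclast markers, of interest because of CTSK, summed to at most 0.770 FPKM in any animal, with CALCR at 0 in all. The single markers did not all follow their sums. In treated replicate 6, AIF1 and MRC1 were the highest of the treated group but CSF1R was the lowest, and among 10 tested epithelial markers 3 were the lowest of the group while DSG3 and EPCAM were the highest. In control replicate 6, 6 of these 10 epithelial markers were the lowest and 2 the highest of the control group. Smooth muscle markers summed to 36.2 FPKM in control replicate 6 and to 15.3 FPKM, the lowest of all animals, in treated replicate 6, and endothelial markers to 9.95 and to 33.1 FPKM, the latter the highest of all. Whether these cell types account for the profile of the 2 animals was not tested.

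**Figure D3:**
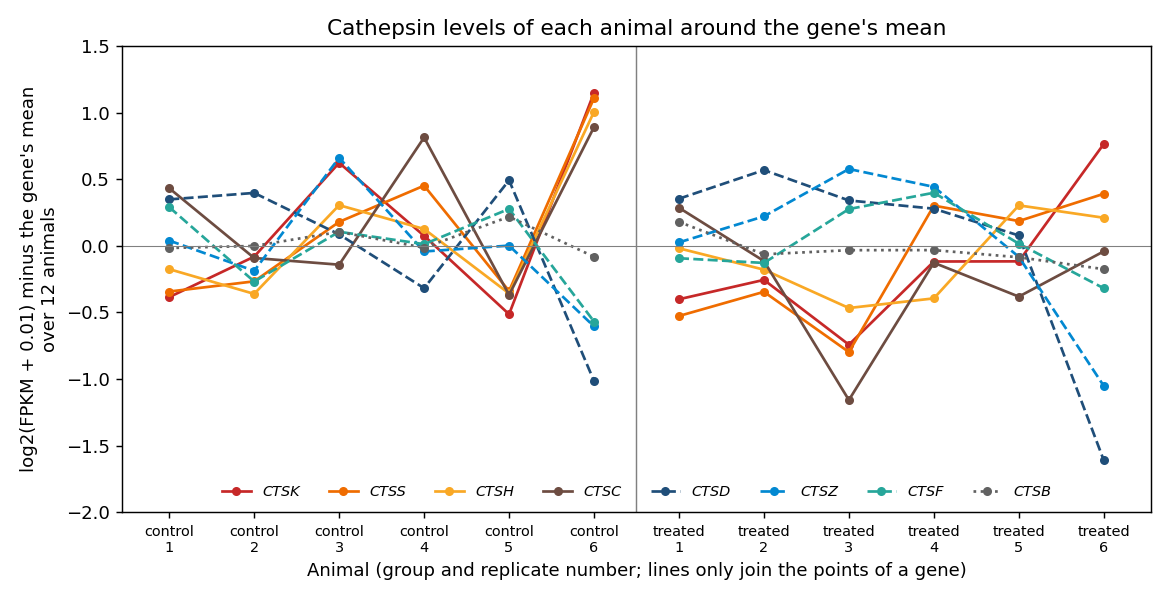
Level of 8 cathepsins in each animal as log2(FPKM + 0.01) minus the gene's mean over 12 animals, with control animals on the left and treated animals on the right; lines only join the points of a gene. In the animal numbered 6 of each group CTSD and CTSZ drop and CTSK is high, while CTSB stays near 0 throughout, although lowest of its group in both.

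Relations among the cathepsins across the 12 animals were computed for all 45 pairs on log2 FPKM, with 100000 permutations and Benjamini-Hochberg adjustment over the pairs. Of these, 7 pairs had an adjusted p-value below 0.05, 5 with a positive and 2 with a negative coefficient, and 15 had an unadjusted p-value below 0.05. The closest relation was that of CTSK and CTSS, with Pearson's r = 0.875 (permutation p = 8e-05, adjusted p = 0.0036) and Spearman's rho = 0.853 (permutation p = 0.00082, adjusted p = 0.0369, n = 12). It was present within the control group (r = 0.894) and within the treated group (r = 0.825), and r was 0.752 without the 2 animals farthest from the median, which here are those numbered 6.

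CTSH, the aminopeptidase, went with both genes. Its r was 0.842 with CTSK (permutation p = 0.00049, adjusted p = 0.011, rho = 0.720, rho permutation p = 0.0107) and 0.803 with CTSS (permutation p = 0.00218, adjusted p = 0.0327, rho = 0.573, rho permutation p = 0.055). Without the 2 farthest animals these coefficients were 0.63 and 0.60. CTSD ran against CTSK, with r = -0.811 (permutation p = 0.00291, adjusted p = 0.0327, rho = -0.720, rho permutation p = 0.0112), or -0.55 without the 2 farthest animals. It also ran against CTSS, with r = -0.729 (permutation p = 0.00635, adjusted p = 0.0444, rho = -0.776, rho permutation p = 0.00443), and here r was -0.73 without them. The negative relation of CTSD and CTSS thus had about the same size with and without the animals numbered 6, while that with CTSK was smaller without them.

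CTSD and CTSZ were related over the 12 animals but not over the other 10. Their r of 0.785 (permutation p = 0.00454, adjusted p = 0.0409, rho = 0.399, rho permutation p = 0.201) was 0.0353 without them, so that the relation rests on those samples. CTSF and CTSZ had r = 0.726 (permutation p = 0.0069, adjusted p = 0.0444, rho = 0.685, rho permutation p = 0.0175), or 0.632 without the 2 animals farthest in CTSF and 0.498 without those numbered 6. By ranks, of the pairs called by Pearson's r, only CTSK and CTSS had an adjusted permutation p-value below 0.05 (0.0369). For the others it ran from 0.0664 (CTSD and CTSS) to 0.335 (CTSD and CTSZ). CTSA and CTSD, not called by Pearson's r, were related by ranks (rho = 0.825, adjusted p = 0.0371). Their Pearson's r was 0.512 over 12 animals (adjusted p = 0.193) and 0.871 without both animals numbered 6. Without both of these animals the largest coefficients in size were those of CTSA and CTSD (0.871), CTSA and CTSS (-0.787) and CTSK and CTSS (0.752). Neither of the pairs with CTSA had an adjusted p-value below 0.05 by Pearson's r over all 12 animals. When the pairs were computed again without both animals numbered 6, 1 of 45 had an adjusted p-value below 0.05. Leaving out 1 animal at a time gave between 0 and 10 such pairs, with 0 without control replicate 6, 1 without treated replicate 3 and 2 without control replicate 4, and 4 without each of control replicate 1, treated replicate 1 and treated replicate 5. The number of related pairs is therefore not stable at this number of animals.

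**Figure D4:**
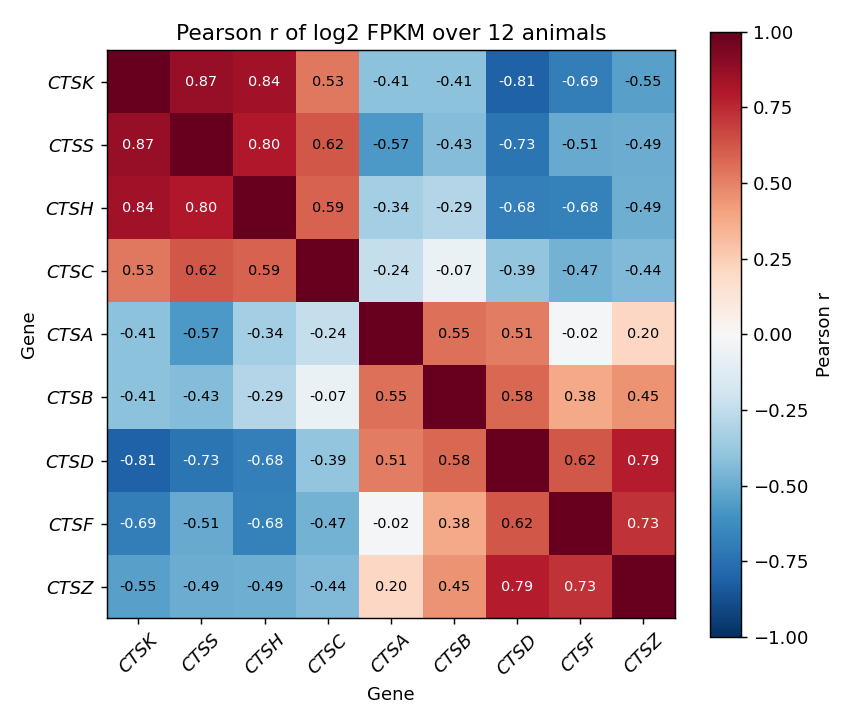
Pearson's r of log2(FPKM + 0.01) over 12 animals for each pair of the tested cathepsins, with red for positive and blue for negative values. CTSK, CTSS and CTSH form a positive block (0.803 to 0.875), and CTSD is negative with each of them.

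The sums of macrophage, fibroblast, smooth muscle and epithelial markers were set against each cathepsin, CTSL included, over the same 12 animals. None of the 40 relations had an adjusted p-value below 0.05, and 9 had an unadjusted one below 0.05. The strongest was that of CTSK with the macrophage sum (r = 0.718, permutation p = 0.00897, adjusted p = 0.151, rho = 0.524, rho permutation p = 0.0825, n = 12), whose r was 0.473 without the 2 farthest animals and 0.354 without both animals numbered 6. For CTSS with the fibroblast sum, r was 0.698 (permutation p = 0.0111, adjusted p = 0.151, rho = 0.720, rho permutation p = 0.0102) and 0.679 without the 2 farthest animals or 0.623 without both animals numbered 6. With a score of fibroblast and smooth muscle markers as a covariate in limma, the log2 fold change between diets was -0.0071 for CTSS and -0.06 for CTSK, in place of -0.26 and -0.29. CTSH likewise came closer to 0 (-0.07, in place of -0.18). By contrast, CTSD (-0.23), CTSA (-0.15), CTSB (-0.12), CTSC (-0.56) and CTSF (0.10) moved away from 0, and CTSZ was at 0.05, in place of 0.04. With the macrophage score as the covariate instead, the values were -0.23 for CTSS, -0.26 for CTSK and -0.16 for CTSH. CTSD and the macrophage sum had r = -0.673 (permutation p = 0.013, adjusted p = 0.151, rho = -0.357, rho permutation p = 0.253), or -0.58 without the 2 farthest animals and -0.086 without both animals numbered 6. Fibroblast markers had negative signs between diets for 8 of 8 genes tested (median log2 fold change -0.66, 0 with an unadjusted limma p-value below 0.05), and smooth muscle markers for 6 of 6 (median -0.75). Of the latter, DES had an unadjusted limma p-value below 0.05 (log2 fold change -1.04, exact permutation p = 0.0519, limma adjusted p = 0.9997).

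As a description of what else varied like each cathepsin, the tested genes with the highest Pearson's r over the 12 animals were listed, 3 for each cathepsin and with no test. CTSD was followed most closely by NUMA1 (r = 0.983), ZC3H18 (0.981) and PGGHG (0.978). CTSK had MFSD14A (0.941), UBE2W (0.931) and ZEB2 (0.930) as nearest genes, and CTSS had SP3 (0.935), ZEB2 (0.929) and LOC102391695 (0.929), so that ZEB2 was common to both. The other sets were led by MRPL36 for CTSZ (0.945), ATRIP for CTSF (0.939), TEX2 for CTSA (0.919), MOB1A for CTSH (0.898), TFEC for CTSC (0.891) and OXR1 for CTSB (0.859). None of these leading genes was a cathepsin. Without both animals numbered 6, r was 0.857 for NUMA1, 0.705 for MOB1A and 0.913 for TEX2.

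For other peptidases of the lysosome and endosome, no difference between the diets passed the test either. Of 11 listed, 9 were in the table and 7 were tested, of which 0 had an unadjusted limma p-value below 0.05 (median log2 fold change -0.0051). LGMN, the asparaginyl endopeptidase that cuts several cathepsins into their mature chains, had 33.7 ± 7.14 and 35.1 ± 14.2 FPKM (SD, n = 6 each). The serine carboxypeptidase SCPEP1 had 48.6 ± 10.7 and 44.2 ± 11.05 FPKM, and the dipeptidyl peptidase DPP7 had 38.0 ± 11.3 and 37.3 ± 5.36 FPKM. These peptidases thus exceeded CTSA on the same scale. TPP1 had 5.36 and 5.63 FPKM, PRCP had 5.54 and 4.84 FPKM, and CTSO had 1.75 and 1.81 FPKM in the control and treated group, respectively. CTSV gave a log2 fold change of 0.14 (exact permutation p = 0.677). CTSW, known from cytotoxic lymphocytes, had at most 7 reads in an animal and NAPSA at most 29, and neither was tested.

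The inhibitors were led by a gene with a higher level than any cathepsin. CST6, a secreted cystatin of squamous epithelia, had 394 ± 81.2 FPKM in the control group and 384 ± 120 FPKM in the treated group (SD, n = 6 each), above the 157 FPKM of CTSB. SERPINB13, a serpin of keratinocytes that blocks papain-like cathepsins, had 62.4 and 59.7 FPKM. CSTA, the cytosolic stefin A, had 3.93, 8.46 and 14.1 FPKM as lowest, median and highest value in the control group and 5.21, 8.01 and 87.9 FPKM in the treated group. The highest value was that of treated replicate 6, which also had the highest CST6 (600.4 FPKM), CTSV (262 FPKM) and LGMN (61.5 FPKM) of the 12 animals. The log2 fold change of CSTA was 0.49 (exact permutation p = 0.630), but without treated replicate 6 it was -0.11, as the other treated animals did not exceed 8.96 FPKM. Without the same animal the values were -0.20 for CST6, -0.09 for CTSV and -0.18 for LGMN. SERPINB1 had 11.7 and 11.5 FPKM, and CST7, at 2 to 15 reads, was not tested. Of the 4 inhibitors tested, 0 had an unadjusted limma p-value below 0.05, and CSTB, CST3, SERPINB3 and SERPINB6 were not analysed here.

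In the wider machinery of the lysosome, no gene had an adjusted limma p-value below 0.05. Of 33 lysosomal hydrolases and activators tested, 22 had negative and 11 positive log2 fold changes, with a median of -0.07, the same as the median of the cathepsins, and 0 passed an unadjusted limma p-value of 0.05. The smallest limma p-value was that of MAN2B1, the lysosomal alpha-mannosidase (38.4 ± 5.03 against 33.0 ± 3.10 FPKM, SD, n = 6 each, log2 fold change -0.21, exact permutation p = 0.0476, not adjusted for the 33 genes). NPC2, which hands cholesterol out of the lysosome, had a log2 fold change of -0.28 (exact permutation p = 0.117). Among 16 lysosomal membrane proteins, 11 were negative (median -0.06), with LAPTM4B at -0.22 and the cystine transporter CTNS at -0.20. The 19 tested genes of the proton pump had a median of -0.06, and ATP6V1A and ATP6V1B2, the catalytic and a regulatory subunit of its head, were at -0.15 and -0.11.

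For the tagging and sorting of cathepsins by mannose 6-phosphate, 11 genes were tested, with 7 negative signs and a median of -0.06. GNPTAB, the transferase that begins the tag, was at -0.32 (exact permutation p = 0.136) and NAGPA, which uncovers it, at -0.29. The 11 genes listed as regulators of lysosomal genes had a median of 0.01, with FNIP1 at -0.20. MLXIPL, on the same list, was at 0.27, and whether it regulates lysosomal genes was not tested. Of the partners of CTSS in class II antigen processing, CD74, the invariant chain, had 40.4 ± 8.27 and 38.3 ± 10.4 FPKM, and IFI30, the thiol reductase of the endosome, had 49.9 ± 10.1 and 50.1 ± 5.77 FPKM (SD, n = 6 each). In each of these lists 0 genes had an unadjusted limma p-value below 0.05, against 1.24% of all tested genes.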

How the data were processed

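Ruminal wall RNA of 12 buffaloes (6 control, 6 treated, grouped by the labels) was sequenced as stranded total RNA. The authors trimmed reads with Trimmomatic 0.39, aligned them with STAR 2.5.2b to the UOA_WB_1 genome and used featureCounts 2.0.0 for stranded counts of each gene, discarding reads of low mapping quality, which affects near-identical gene copies. The authors deposited FPKM values, and the tool behind them is not given in the sources used here. Of 16 columns of values, 4 matched no label and were not used.

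Reads were worked out from the FPKM alone. Each value of a gene is a whole number of steps of 1 read, and totals of counted fragments were set where gene lengths became whole bases, which gave whole reads for 22972 of the 22972 genes above 0. Differences of log2(FPKM + 0.01) were tested in R 4.3.3 by limma 3.58.1 (lmFit and trended eBayes). Tested were 12642 genes, those at or above the study's threshold of normalised reads in 1 animal or more, with Benjamini-Hochberg adjustment over all of them. The added 0.01 hardly affects genes at the levels of the tested cathepsins. A named gene's p-value is from an exact permutation test, two-sided, over all ways to divide the animals, whose smallest possible p is 0.00216. For 12 animals, correlations used 100000 permutations, two-sided. Confidence intervals are at 95%. Python 3.11.15, numpy 2.4.6, scipy 1.17.1, pandas 2.3.3 and matplotlib 3.10.9 were used, and the fit was tested on simulated data.

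Animals are separate individuals, and counted fragments per animal set the precision; a floor of 3 reads covers counting error only. Alternatives were pseudocounts of 0.1 and 1, no filter, at least 0.1 FPKM in 6 animals, TMM and median ratio scaling, robust empirical Bayes, voom, the replicate number as a block, marker scores as covariates and each animal left out. Leaving out both animals numbered 6, and treated replicate 6 for other proteases and inhibitors, was chosen after seeing the data. The cathepsins and all lists were chosen with earlier results of these data known. Named genes were the 10 cathepsins, the tested genes of the protease and inhibitor lists, the 2 with the smallest limma p of every other list without markers, and the 3 genes most alike to each cathepsin. DES and other marker genes were named after their values were seen.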

Additional observations from a re-analysis of the deposited data

Results flagged for a closer look

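Within each group of 6 animals, the gap of the highest or lowest animal to its nearest neighbour was divided by the range of the group and compared with Dixon's critical value at 95%, for 19 groups of values. Of the 19 groups, 4 passed this limit. It is set for independent groups of normally distributed values, while these are FPKM of related genes in the same animals. The count of 4 can therefore not be compared with a chance rate. CTSD of treated replicate 6, at 38.4 FPKM, lay below the next lowest treated animal (124 FPKM), with a gap of 0.630 of the range. CTSK of the same animal, at 14.5 FPKM, was far above the next highest (7.84 FPKM), with 0.705 of the range. CTSH of control replicate 6, at 7.18 FPKM, was above the next control animal at 4.41 FPKM (0.629 of the range). CTSB of treated replicate 1, at 177 FPKM, was above the next treated animal at 153 FPKM (0.626 of the range). The gaps of CTSD, CTSH and CTSB lay only just above the limit. Of the 4 values, 3 belong to the animals numbered 6, and these are not independent of each other.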

How the results depend on the processing

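No cathepsin had an adjusted limma p-value below 0.05 under any of the 24 alternatives. The count at an unadjusted p-value below 0.05 was 0 and became 1, CTSC each time, with the replicate number as a block (log2 fold change -0.51 ± 0.18, SE) and with the macrophage score as a covariate (-0.49 ± 0.21, SE). With single animals left out the count of cathepsins ranged from 0 to 1. It was 1 without control replicate 5 (-0.64, against 169 of 12642 genes) and without treated replicate 1 (-0.62, against 181 of 12642 genes). Without treated replicate 3 the estimate of CTSC was -0.33. Over all alternatives the limma adjusted p of CTSC ran from 0.967 to 0.999998. The labels do not say what a shared number stands for, so the block was kept as an alternative only. Same-numbered animals are different cows, and their deviations correlated above 0.1 in 4 of 6 pairs (mean 0.213, against -0.04 for other numbers). The highest of these correlations, 0.416, was that of the animals numbered 6. Of the controls 4 of 6, and of the treated animals 4 of 6, correlated best with their own number. Whether these animals shared a block was not tested. With the block, 322 in place of 157 of all tested genes had an unadjusted p-value below 0.05. Without the filter on low values that count was 562 of 22972. Of 216 alternative log2 fold changes, 196 kept their sign, 20 changed sign, and none reached an adjusted p-value below 0.05. With the fibroblast and smooth muscle score as a covariate CTSA was at -0.15, CTSD at -0.23, CTSS at -0.0071 and CTSK at -0.06, CTSD was at -0.027 with the macrophage score and at -0.0014 with median ratio scaling. With single animals left out, the ranges were -0.074 to 0.12 for CTSA, -0.20 to 0.33 for CTSD, -0.058 to 0.12 for CTSF, -0.27 to 0.0016 for CTSH, -0.072 to 0.26 for CTSZ, -0.11 to -0.03 for CTSB, -0.64 to -0.33 for CTSC, -0.47 to -0.09 for CTSK and -0.37 to -0.07 for CTSS. Without treated replicate 6, CSTA was at -0.11 and CTSV at -0.093, against 0.49 and 0.14, and CSTA was at -0.077 without both animals numbered 6. The count of related pairs ranged from 0 to 10 with single animals left out and was 1 without both animals numbered 6, against 7. The cause of these shifts was not tested. With 6 animals per group, the 95% interval of each tested cathepsin includes 0 and differences in either direction. CTSL, with at most 5 reads in an animal, was not tested.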
